A study of Mus musculus with 2 samples.

Results

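Erythroid-primed progenitors are described here as single cells of a sorted mouse bone marrow fraction, chosen by the RNA of a few genes. A cell was a member when its UMIs (unique molecular identifiers, 1 per captured RNA molecule) of Car1, Klf1, Aqp1 and Ermap summed to at least 4 per 10000 and those of Mpo and Ctsg to less than 15 per 10000. Of 12318 kept cells 446 met both limits, 35 of 7190 in the control library and 411 of 5128 in the irradiated library. The fraction was LSK, that is cells low in lineage markers with Sca1 and c-Kit on their surface, from C57BL/6J mice aged 6 to 8 weeks. The control group was not treated, and the irradiated group had received 5.0 Gy to the whole body 15 days before collection. Each group was 1 library made with the 10x 3′ method, after lysis of red cells, and how many animals went into it was not given. There is therefore no replicate error, no test was possible, and every 95% interval below covers counting error only.

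Red cells are made from multipotent progenitors through stages that switch on the factor Gata1 and then Klf1, which together drive the genes for haem, globin and the red cell membrane. Erythropoietin, the hormone of the kidney that answers to low oxygen, acts through its receptor Epor on committed erythroid progenitors, and these take up iron through the transferrin receptor. The early stages share genes with megakaryocyte progenitors, which make platelets, and in the mouse Sca1 is usually low on cells committed to the erythroid lineage.

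The values that chose the cells are a description and not a result. Car1 is a carbonic anhydrase of early erythroid cells, Klf1 an erythroid transcription factor, Aqp1 a water channel and Ermap an erythroid membrane protein. The sum of these 4 genes ran from 4.19 over a median of 19.8 to 61.7 per 10000 in control members and from 4.05 over 22.3 to 77.0 in irradiated members. Car1 made up 79.9% and 80.3% of the sum. All 4 genes had a UMI in 15 of the 35 control and 254 of the 411 irradiated members, and 2 and 19 members met the limit through 1 gene alone. Just inside the limit, at 4 to 5 per 10000, lay 2 control and 19 irradiated members (medians 4.47 and 4.35). Just outside, at 3 to 4, lay 2 control and 24 irradiated cells (medians 3.37 and 3.42). Only 1 control and 5 irradiated cells met the sum and were left out for Mpo and Ctsg, which encode granule proteins of the neutrophil line. Among all other cells the sum was 0 in 95.7% of control and 76.2% of irradiated cells.

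**Figure D1:**
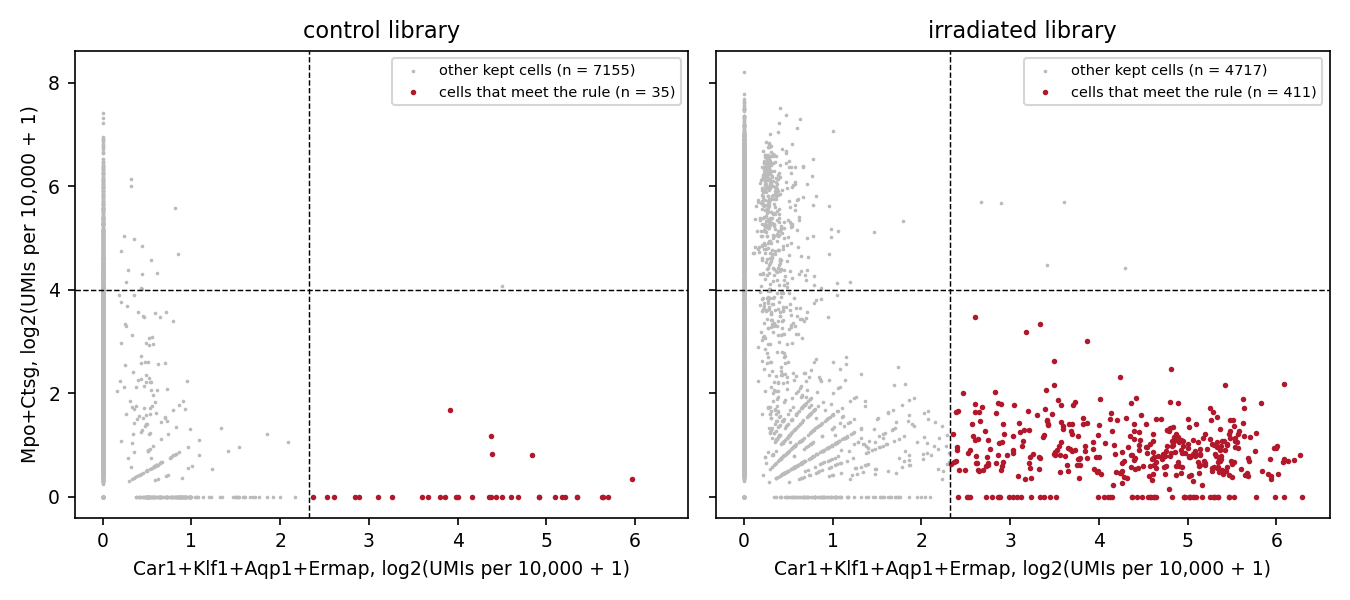
Each point is a kept cell of the control library (left) or the irradiated library (right), with the summed Car1, Klf1, Aqp1 and Ermap UMIs per 10,000 on the x axis and the summed Mpo and Ctsg UMIs on the y axis, both as log2(value + 1). Dashed lines are the limits of the rule; the 35 and 411 cells that met it are red, and the other 7155 and 4717 cells are grey.

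Members were 0.487% (0.339 to 0.676) of kept control cells and 8.01% (7.29 to 8.79) of kept irradiated cells. They are shares of sorted cells, and the number of such cells in the marrow was not measured. The libraries held 139274656 and 165119247 UMIs in 7686 and 5596 barcodes, and median depth was 16296 UMIs in control and 26734 in irradiated members, against 16084 and 29925 in the cells outside them. The members summed to 719969 control and 12676302 irradiated UMIs, so a gene at 3 UMIs, the limit that a count of 0 allows, stood at 4.17 CPM (UMIs per 1000000) in control members and 0.237 CPM in irradiated members. Barcodes present in both libraries numbered 16, and 1 of them was an irradiated member.

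The label was checked against 14 erythroid markers that the rule did not use, of which 13 were measured, with 10 CPM or more as the mean of members and the other irradiated cells. All 13 were higher by 1.5-fold or more in irradiated members than in the rest of their own library, with a median log2 ratio of 3.72. Over all 7105 genes tested 10.9% were as much higher and 13.8% as much lower, and the median log2 ratio was 0.04. The exception was Cnrip1, below the minimum, at 1.81 CPM in members and 11.3 CPM in the rest. Rhd, the blood group protein, stood at 68.3 CPM against 0.291 CPM, and Epor at 59.5 against 2.05 CPM. Gata1 stood at 95.8 against 8.60 CPM. Blvrb, a biliverdin reductase of red cells, stood at 690 CPM (675 to 704) against 23.6 CPM. In the control library the same 4 genes stood at 129, 41.7, 110 and 788 CPM in members and at 0.102, 0.655, 2.15 and 28.9 CPM in the other cells. Of the control members' UMIs, 10 cells held 95.7% for Rhd, 86.7% for Epor and 73.4% for Gata1. Without globin-high control members (defined below), Rhd stood at 66.0, Epor at 45.6, Gata1 at 113 and Blvrb at 608 CPM. Rhd, Epor and Gata1, among others, reached the minimum of 10 CPM only through members, so this minimum favours markers that are higher there. Without it, all 14 markers summed to 1619 CPM in irradiated members and 184 CPM in the rest. In the irradiated library the label thus matched the 13 measured markers and not Cnrip1. In the control library it matched Rhd, Epor, Gata1 and Blvrb.

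Promoter sequences are shown because Gata1 and Klf1 are known to act through short DNA motifs. Klf1, Ermap and Aqp1 are genes of the rule, and Epor and Rhd are markers that it did not use. The sequences are the 250 bases before the start of transcription (RefSeq, GRCm38.p6), read 5′ to 3′ on the strand of the gene. Capitals mark matches on either strand to the GATA motif (AGATAA or TGATAA) or to a CACCC-type motif of the Klf family (CCNCNCCC, with N for any base), and overlapping matches were each counted. Klf1 lies at chr8:84901732-84901981 on the plus strand, Ermap at chr4:119189996-119190245 on the minus strand and Aqp1 at chr6:55336049-55336298 on the plus strand. Epor lies at chr9:21963577-21963826 on the minus strand and Rhd at chr4:134864286-134864535 on the plus strand. Car1 has no sequence shown.
Klf1: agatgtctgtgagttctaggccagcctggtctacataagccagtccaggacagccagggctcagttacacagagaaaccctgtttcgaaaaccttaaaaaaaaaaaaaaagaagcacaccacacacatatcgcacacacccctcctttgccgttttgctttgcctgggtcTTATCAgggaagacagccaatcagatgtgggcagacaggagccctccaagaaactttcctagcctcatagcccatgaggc
Ermap: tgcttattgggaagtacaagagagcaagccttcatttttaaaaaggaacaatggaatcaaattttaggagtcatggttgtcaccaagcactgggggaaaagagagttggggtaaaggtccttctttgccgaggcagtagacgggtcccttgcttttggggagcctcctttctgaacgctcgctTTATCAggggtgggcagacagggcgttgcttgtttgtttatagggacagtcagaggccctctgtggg
Aqp1: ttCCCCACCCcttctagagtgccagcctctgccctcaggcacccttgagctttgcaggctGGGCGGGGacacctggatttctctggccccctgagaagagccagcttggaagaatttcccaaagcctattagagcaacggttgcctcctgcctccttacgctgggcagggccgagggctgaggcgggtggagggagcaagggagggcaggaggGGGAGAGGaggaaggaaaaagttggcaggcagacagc
Epor: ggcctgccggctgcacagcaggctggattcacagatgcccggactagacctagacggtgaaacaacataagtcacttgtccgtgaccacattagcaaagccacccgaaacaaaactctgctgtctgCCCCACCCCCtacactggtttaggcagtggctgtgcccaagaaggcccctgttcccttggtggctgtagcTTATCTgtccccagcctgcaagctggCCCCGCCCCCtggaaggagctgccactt
Rhd: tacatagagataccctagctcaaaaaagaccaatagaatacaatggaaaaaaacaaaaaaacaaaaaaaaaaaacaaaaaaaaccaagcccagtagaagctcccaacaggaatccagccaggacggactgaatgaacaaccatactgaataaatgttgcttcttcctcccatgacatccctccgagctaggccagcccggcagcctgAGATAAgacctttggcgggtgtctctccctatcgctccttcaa

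Klf1, Ermap, Epor and Rhd each had 1 GATA motif, starting at base -80, -67, -54 and -43 from the start site. In Klf1 and Ermap it was the same 6 letters, TTATCA, read on the opposite strand. Aqp1 had no GATA motif and 3 CACCC-type matches, and so had the promoter of Gata1, which is not shown. Epor had 4 CACCC-type matches in 2 overlapping pairs, and the CACCC-type match of Rhd began at base 3 after the start, outside the bases shown. In the 300 bases from 250 before to 50 after the start, a GATA motif was present in 18.6% of the 32851 promoters of the RefSeq table and a CACCC-type motif in 49.5%. Of 19 promoters of 12 erythroid markers that the rule did not use, 7 (36.8%) held the first and 16 (84.2%) the second. The share with a GATA motif was 36.4% among promoters of erythroid factors and 38.5% among those of red cell membrane genes, and it was 21.4% for haem synthesis and 25% for early erythroid effectors, nearer to that of all promoters. The shares with a CACCC-type motif were 72.7%, 61.5%, 85.7% and 75%. These are letter matches, and whether any factor was bound there was not measured.

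Against the rest of the irradiated library, members were higher by 2-fold or more in 354 of 7105 genes (4.98%) and lower by as much in 565 (7.95%). The 12 highest ratios at a mean of at least 20 CPM were those of Add2, Rhd, Slc25a21, Sphk1, Cldn13, Atp1b2, Rhag, Col5a1, Tspo2, Nxpe2, Mt2 and Ces2g. Add2, an adducin of the membrane skeleton, stood at 42.4 CPM in members and 0.159 CPM in the rest, a log2 ratio of 8.06 (7.47 to 8.71). Sphk1, a sphingosine kinase, stood at 50.7 and 0.238 CPM, and Rhag, the Rh-associated transporter, at 63.7 and 0.589 CPM. Tspo2, an erythroid relative of the mitochondrial translocator protein, stood at 150 and 1.80 CPM. In the rest these genes were concentrated in few cells, and 10 cells held 72.2% of the Sphk1, 68.6% of the Cldn13, 66.7% of the Add2 and 57.6% of the Slc25a21 UMIs. For the other 8 genes that share was at most 45.7% (Col5a1).

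The 12 lowest were Trem3, Igkc, Anxa3, Hp, Ly86, Elane, F13a1, Ccr2, Slpi, Igha, Ly6c2 and BC035044, mostly genes of neutrophil and monocyte progenitors. Elane, for neutrophil elastase, stood at 17.4 CPM in members and 801 CPM in the rest (log2 -5.52). These ratios depended on the comparison cells, since members are held to less than 15 Mpo and Ctsg UMIs per 10000 and the rest is not. Against only those other cells that met the same limit, the log2 ratio was -0.22 for Elane, -1.35 for Hp, -1.58 for Ly6c2, -2.04 for Trem3, -2.29 for F13a1 and between -2.74 and -4.57 for Ccr2, Anxa3, Slpi, BC035044 and Ly86. For the immunoglobulin genes Igkc and Igha, 10 cells held 98.9% and 97.5% of the UMIs of the rest, and without each gene's 10 highest cells the log2 ratio was 0.0096 for Igkc and -1.22 for Igha. Without the cells of the highest doublet scores it was 0.33 and -0.0021. In members, 10 cells held all of the 6 Trem3 and 11 Ly86 UMIs, and 84.6% of those of Ccr2, 73.3% of F13a1 and 63.2% of Igha.

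Of the genes called higher, 86 were also measured in the control library, where 69 were again at least 2-fold higher in the 35 members than in their own rest and 1 lay on the other side. Of those called lower, 172 were measured, 127 were again at least 2-fold lower and 3 lay on the other side. Cells of both libraries were chosen by the same rule, so this is a description of the members and not independent support.

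Erythroid transcription factors differed in how far members stood above the rest. Of 12 measured, 6 were at least 1.5-fold higher and 1 lower, beside 10.9% and 13.8% of all genes, with a median log2 ratio of 0.78. Nfia, a nuclear factor that favours erythroid over granulocytic fate, stood at 70.1 against 5.71 CPM. Gfi1b, a repressor needed for erythroid and megakaryocyte maturation, stood at 82.0 against 9.24 CPM, and Zfpm1, the cofactor of Gata1, at 158 against 33.1 CPM. Tal1 and Ldb1, which form a complex with Gata1, stood at 67.4 against 18.2 CPM and at 84.2 against 40.5 CPM. Myb, Zbtb7a, Cbfa2t3, Nfe2 and Lmo2 lay within 1.5-fold (log2 0.51, 0.46, 0.45, 0.27 and -0.50), and Lyl1 was lower (log2 -1.03). Sox6 and E2f2 were below the minimum.

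Factors of stem and myeloid cells were low in members, with 9 of 10 at least 1.5-fold lower, beside 13.8% of all genes. Their median log2 ratio was -1.57. Spi1 (PU.1) stood at 20.4 against 158 CPM, Cebpa at 1.66 against 35.7 CPM and Irf8 at 4.97 against 121 CPM. In members 10 cells held 71.4% of the Cebpa UMIs. The exception was Gata2, which precedes Gata1 in this lineage, at 120 against 38.8 CPM.

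Of 9 cytokine receptors measured, 3 were higher and 5 lower by 1.5-fold or more, beside 10.9% and 13.8% of all genes. Besides Epor, Il1rl1, the receptor of interleukin 33, stood at 27.5 against 1.73 CPM, and Ifngr1, a chain of the interferon gamma receptor, at 185 against 93.2 CPM. Csf3r, the receptor of granulocyte colony-stimulating factor, and Flt3, the receptor of lymphoid-biased progenitors, were the lowest, at 1.34 against 24.6 CPM and 3.39 against 50.01 CPM, and 10 members held 58.8% and 88.4% of their UMIs. Of 9 measured genes of the erythropoietin pathway 3 were higher and 3 lower, beside the same shares of all genes, and the median log2 ratio was -0.16. The higher ones were the kinase Jak2 (24.1 against 13.0 CPM), the factor Stat5a (53.8 against 25.9 CPM) and their target Cish (15.5 against 8.76 CPM). Pim1, Socs3 and Id1 were lower.

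Haem synthesis genes were higher as a group, with 10 of 11 at least 1.5-fold higher, beside 10.9% of all genes. Their median log2 ratio was 1.45. Cpox, which oxidises coproporphyrinogen, stood at 163 against 18.7 CPM, Alad at 155 against 41.3 CPM and Urod at 111 against 36.4 CPM. Fech, which inserts the iron, stood at 39.5 against 9.61 CPM. The exception was Alas1, the ubiquitous form of the first enzyme, at 10.7 against 73.6 CPM (log2 -2.78, and -0.93 against other cells under the same Mpo and Ctsg limit). Alas2, its erythroid form, was below the minimum at 2.05 against 0.0927 CPM, and all of its 26 UMIs lay in 6 members. Beside 10.9% of all genes higher and 13.8% lower, 6 of 12 iron genes were higher and 1 lower. These included the transferrin receptors Tfrc (125 against 55.8 CPM) and Tfr2 (57.4 against 15.0 CPM), the exporter Slc40a1 (22.96 against 0.649 CPM) and the reductase Steap3 (56.3 against 10.5 CPM), while Ncoa4, which delivers ferritin for breakdown, was lower at 26.6 against 57.7 CPM.

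The 18 genes of the red cell membrane summed to 644 CPM in members and 195 CPM in the rest. Of these, 10 reached the minimum of 10 CPM, and Add2, Rhd and Rhag did so only through members, so this minimum favours genes that are high there. All 10 were higher by 1.5-fold or more, beside 10.9% of all genes, with a median log2 ratio of 4.47. The size of this median depended on the processing. It was 2.57 without globin-high members (defined below), 2.43 with cells weighted equally, 2.58 without each gene's 10 highest cells, 5.39 with no CPM minimum and 0.71 at 50 CPM. They ranged from Add2 down to Epb41, the band that ties spectrin to the membrane, at 36.8 against 23.6 CPM. Early erythroid effector genes were higher in 16 of 17 cases (median log2 ratio 3.72), among them the carbonic anhydrase Car2 at 1597 against 141 CPM, the claudin Cldn13 at 64.3 against 0.338 CPM and the apolipoprotein Apoe at 927 against 188 CPM. The metallothioneins, which bind zinc and copper, were also high. Mt1 stood at 966 against 248 CPM and Mt2 at 426 against 5.87 CPM (log2 1.96 and 6.18). Against other cells under the same Mpo and Ctsg limit the log2 ratios were 3.92 and 6.84.

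To place these levels, irradiated cells outside the members were grouped by summed UMIs per 10000, in order of precedence, as granule-gene cells (Mpo and Ctsg at least 15, 1903 cells), megakaryocyte-gene cells (Pf4, Itga2b and Gp5 at least 4, 146 cells), HSC-gene cells (Hlf, Mecom and Procr, genes of haematopoietic stem cells, at least 2, 580 cells) and lymphoid-gene cells (Dntt, Flt3 and Satb1 at least 4, 731 cells). Gata1 stood at 95.8 CPM in members, 71.2 CPM in megakaryocyte-gene, 6.41 CPM in HSC-gene, 1.38 CPM in lymphoid-gene and 1.25 CPM in granule-gene cells. Epor followed the same order for the first 3, at 59.5, 17.4 and 2.25 CPM, and stood at 0.296 and 0.45 CPM in the other two. The intervals of the lymphoid-gene and granule-gene cells overlapped for both genes, as the plot of summed levels shows.

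**Figure D2:**
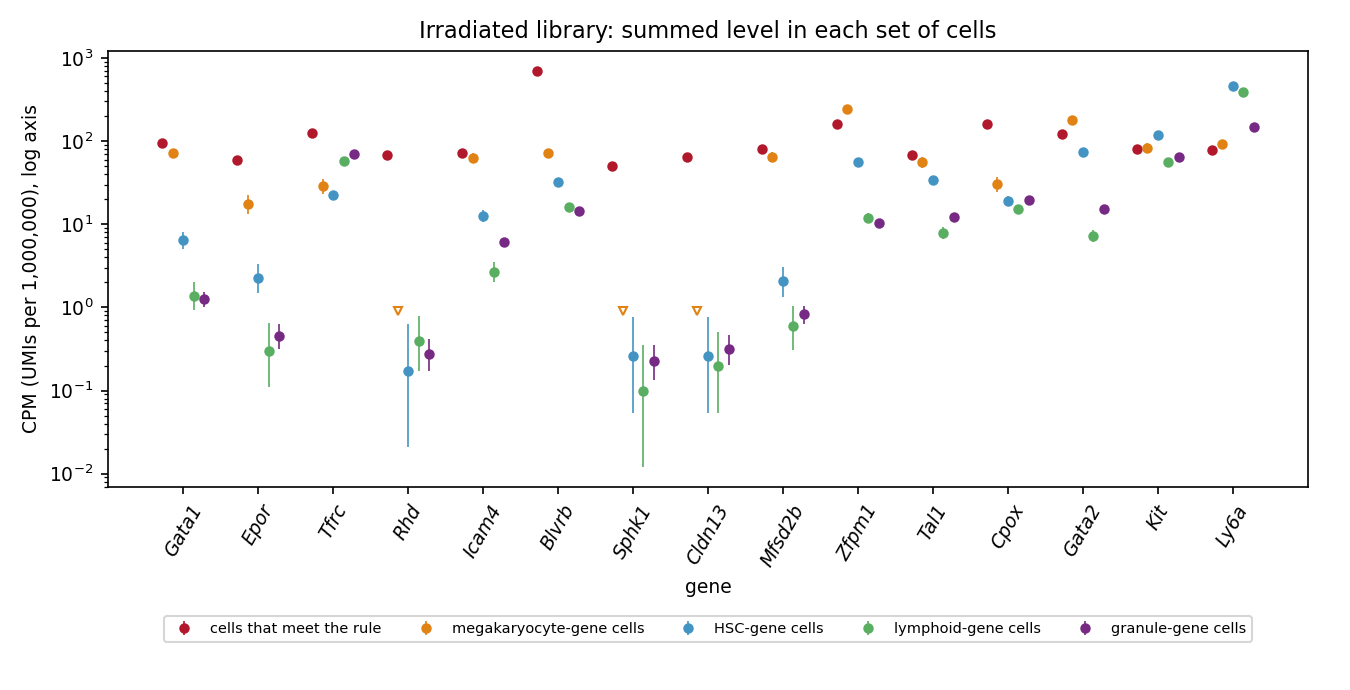
Summed CPM of 15 genes in 5 sets of irradiated cells, on a log axis. Bars are exact 95% Poisson intervals and cover counting error only, and open triangles mark a count of 0, drawn at 3 UMIs. Rhd, Sphk1 and Cldn13 were counted in members and were at 0 in megakaryocyte-gene cells, while Gata1, Icam4, Mfsd2b and Tal1 were at similar levels in both.

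Over all 5128 kept irradiated cells, the 10 genes whose log-normalised level followed the rule sum most closely were Blvrb (Pearson r = 0.82), Tspo2 (0.79), Ces2g (0.79), Mt2 (0.73), Abcb4 (0.73), Atp1b2 (0.70), Samd14 (0.64), Optn (0.64), Epdr1 (0.62) and Slc25a21 (0.61). The cells share 1 library, the members alone carry most of these UMIs, and the values are given as a description with no test. The same genes were present in control members. Tspo2, Ces2g, Abcb4 and Samd14 stood there at 138, 128, 101 and 59.7 CPM, against 0.146, 0.830, 4.42 and 1.36 CPM in the other control cells.

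Other gene groups showed smaller or mixed differences, to be read beside the 10.9% of all genes that were higher and the 13.8% that were lower by 1.5-fold or more. Of 50 G2/M genes 6 were higher and 1 lower (median log2 ratio 0.19), and of 41 S phase genes 2 were higher and 2 lower (-0.18), so the higher share of neither list stood far above that of all genes. Mki67, a proliferation marker, stood at 307 against 154 CPM. After each cell was thinned to 5000 UMIs, which left out 17 of 411 members, a Mki67 UMI was present in 60.2% of members, 55.6% of megakaryocyte-gene, 39.0% of granule-gene, 34.6% of lymphoid-gene and 26.7% of HSC-gene cells. Among 13 glycolysis genes 8 were lower and 1 higher (median -0.71). Pkm, the pyruvate kinase of most tissues, stood at 57.0 against 461 CPM, and the hexokinase Hk1 at 120 against 48.1 CPM. Of 16 antioxidant genes 5 were higher, led by Nqo1 (20.3 against 1.75 CPM) and Gclm (387 against 110 CPM). Of 27 interferon response genes 11 were higher and 2 lower (median 0.47, and 0.13 against other cells under the same Mpo and Ctsg limit). Igtp, an interferon-inducible GTPase, stood at 101 against 23.4 CPM, and Ifi27l2a at 70.1 against 193 CPM.

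Of 9 p53 target genes measured, the damage response factor's targets Bbc3 and Ccng1 were higher (14.0 against 6.26 CPM and 29.5 against 13.8 CPM), and Cdkn1a, the cell cycle inhibitor p21, was lower at 30.8 against 81.4 CPM. Of 16 immediate early genes 2 were higher (Egr1 and Junb) and 5 lower (median -0.05). Of 20 ribosome biogenesis genes 2 were higher (median 0.30), shares near the 10.9% of all genes. Of 14 MHC class I genes 6 were higher and 1 lower (median 0.38).

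Markers of most other cell types were lower in members than in the rest, with exceptions among HSC and megakaryocyte markers. All 7 measured neutrophil-primed markers and all 4 lymphoid-primed markers were lower than in the rest, beside 13.8% of all genes. So were 6 of 7 monocyte or dendritic markers and both measured mast cell and basophil markers. The neutrophil-primed result depended on the comparison cells, since the rule holds members to less than 15 Mpo and Ctsg UMIs per 10000. Against other cells under the same limit the log2 ratio was -0.22 for Elane, -1.35 for Hp and -2.04 for Trem3. No macrophage or endothelial marker reached the minimum, and 5 of the 6 endothelial and stromal markers were at 0. Of 5 measured HSC markers, Hlf (4.65 against 33.9 CPM) and Mecom (6.15 against 18.4 CPM) were lower, and Clca3a1, Mllt3 and Slamf1 were higher (25.9 against 3.96, 56.5 against 12.7 and 18.5 against 5.42 CPM). For Hlf 10 members held 71.2% of the UMIs. The median log2 ratio of the 5 was 1.77, and all 10 HSC markers summed to 114 CPM in members and 85.0 CPM in the rest. Of 6 measured megakaryocyte markers Gp5 was higher, Selp, Plek and Pf4 were lower and the other two lay within 1.5-fold. Most irradiated members carried at least 1 UMI of these lists, 401 of 411 for neutrophil-primed, 364 for HSC and 351 for megakaryocyte markers. Fewer reached the limits that define the other sets. Pf4, Itga2b and Gp5 summed to at least 4 per 10000 in 1 of 35 control and 5 of 411 irradiated members, Hlf, Mecom and Procr to at least 2 in 3 and 2 members, and Dntt, Flt3 and Satb1 to at least 4 in 0 and 4. Among irradiated cells outside the members the shares were 3.14%, 12.7% and 17.98%, against 1.22%, 0.487% and 0.973% of members. Of the doublet scores, 2 control (5.71%) and 22 irradiated members (5.35%) lay among the highest 6% of their library. Single cells stood apart. A control member of low depth had 61.7 macrophage marker UMIs per 10000, and an irradiated member had 330 monocyte or dendritic marker UMIs per 10000.

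Members were compared over all genes with the 146 megakaryocyte-gene cells, the set whose Gata1 and Epor levels were closest to theirs. The other sets were not compared over all genes. Gata1 stood at 95.8 CPM in members and 71.2 CPM in megakaryocyte-gene cells, Gfi1b at 82.0 and 63.4 CPM, Tal1 at 67.4 and 55.6 CPM, and the adhesion protein gene Icam4 at 71.2 and 63.1 CPM. Of 12 erythroid factors 3 were at least 1.5-fold higher in members (Nfia, Ldb1 and Myb) and 2 lower (Lmo2 and Zfpm1), against 8.82% and 16.2% of 7173 genes tested. At 2-fold these shares were 3.67% and 7.08%. Gata2 stood at 120 and 181 CPM, and Fli1, a megakaryocyte factor, at 17.2 and 174 CPM. All 8 measured stem and myeloid factors were lower in members (median log2 ratio -1.86, against -0.08 over all genes tested).

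Several erythroid markers that the rule did not use stood well above the megakaryocyte-gene cells. Rhd, Cldn13 and Sphk1 had 0 UMIs in those 146 cells, which puts them at least 75.8-fold, 71.4-fold and 56.3-fold higher in members, computed from 3 counts over the group. Epor stood at 59.5 against 17.4 CPM, Tfrc at 125 against 28.5 CPM and Blvrb at 690 against 70.9 CPM. Of 11 haem synthesis genes 10 were higher and 0 lower (median 1.39). Mt2 stood at 426 against 4.81 CPM. Among 11 erythropoietin pathway genes 7 were lower and 0 higher, and among 27 interferon genes 19 were higher and 1 lower (median 0.79), beside 8.82% of all genes higher and 16.2% lower, with Irf1 at 115 against 40.8 CPM.

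A few members carried many globin UMIs and differed from the others in several erythroid genes. With a limit of 10 globin UMIs per 10000 (Hba-a1, Hba-a2, Hbb-bs and Hbb-bt together), chosen after the values were seen, 8 of 35 control members (22.9%, 10.4 to 40.1) and 21 of 411 irradiated members (5.11%, 3.19 to 7.70) were globin-high. The highest value below the limit was 9.50 in control and 9.58 in irradiated members, and the lowest above it was 20.6 and 10.995. These cells held 98.7% and 95.5% of all member globin UMIs. The alpha globin genes Hba-a1 and Hba-a2 are near-identical copies, as are the beta genes Hbb-bs and Hbb-bt, so the split of reads within each pair is uncertain.

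In the globin-high cells of the irradiated library Alas2 stood at 60.7 CPM against 0.244 CPM (3 UMIs) in the other members, the anion exchanger Slc4a1 at 240.2 against 0.0813 CPM (1 UMI) and Tfrc at 370 against 117 CPM. Car1, by contrast, stood at 987 against 2164 CPM, Myb at 37.0 against 329 CPM and Gata2 at 23.8 against 123 CPM. In the 8 globin-high cells of the control library all of these genes lay in the same directions. Tfrc stood at 479 against 50.3 CPM, Myb at 47.9 against 427 CPM and Car1 at 814 against 2404 CPM. Slc4a1 stood at 658 CPM and Alas2 at 156 CPM (13 UMIs), both against 0 UMIs, and Gata2 at 11.97 (1 UMI) against 130 CPM. Epor, Gata1 and Cd34 did not lie in the same direction in both libraries. Epor stood at 132 against 57.2 CPM in the irradiated library and at 11.97 (1 UMI) against 45.6 CPM in the control library. Gata1 stood at 143 against 94.4 CPM and at 83.8 (7 UMIs) against 113 CPM, and Cd34 at 5.28 (2 UMIs) against 16.3 CPM and at 95.7 (8 UMIs) against 42.4 CPM. The control intervals of the globin-high and other cells overlapped for all 3 genes. Kit, the gene of the sorting marker c-Kit, had a UMI in 1 of the 8 and 3 of the 21 globin-high cells, and in 23 of 27 and 318 of 390 of the others. Median depth was 2386 and 9336 UMIs in the globin-high cells and 17554 and 26992 UMIs in the others, and its part in the Kit counts was not tested. Outside the members, 52 control and 100 irradiated cells had at least 10 globin UMIs per 10000.

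**Figure D3:**
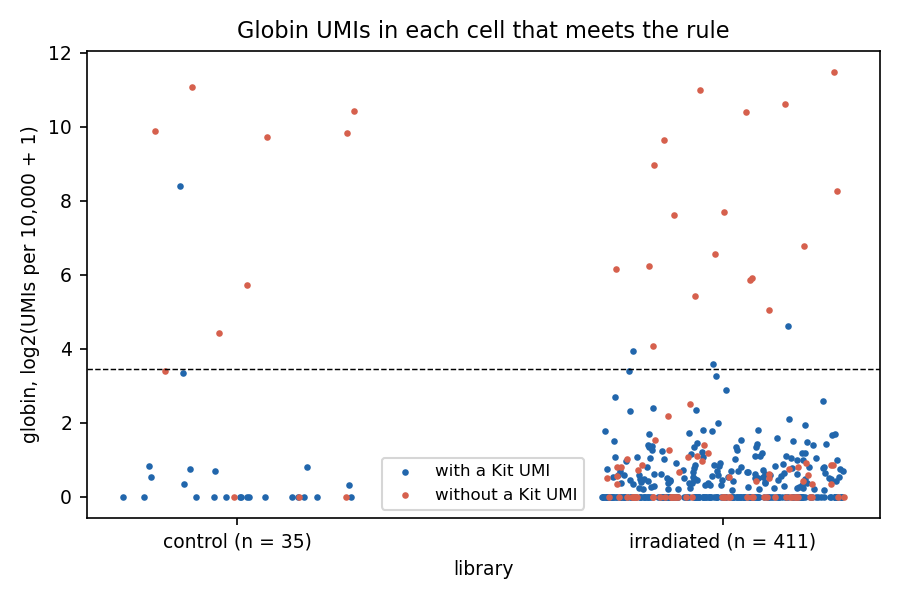
Globin UMIs per 10,000 in each of the 35 control and 411 irradiated members, as log2(value + 1) on the y axis, with the libraries side by side (points are spread sideways for sight). The dashed line is the limit of 10. Members above it, 8 and 21 in number, mostly had no Kit UMI (red), and members below it mostly had one (blue).

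Without the globin-high cells the other 390 irradiated members still stood above the rest of their library in the early erythroid genes (Rhd log2 7.60, Epor 4.80, Cldn13 7.25, Cpox 2.99). Their globin level was far closer to that of the rest. Hba-a1 stood at 11.5 CPM in these members and 11.1 CPM in the cells outside, and Hbb-bs at 25.9 and 14.0 CPM. The high globin ratios of the members over the rest (log2 5.08 for Hba-a1 and 5.21 for Hbb-bs) therefore rested on the 21 cells. The share of members among kept cells was 0.376% (0.248 to 0.546) and 7.61% (6.89 to 8.36) without globin-high cells.

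Among the 390 globin-low irradiated members, genes were compared over 4 ranges of the rule sum, each with 97 or 98 cells. The ranges ran from 4.05 to 10.4, 10.4 to 22.9, 22.9 to 35.1 and 35.3 to 77.0 per 10000, and median depth also differed between them, at 18156, 25460, 30648 and 35179 UMIs. The rule fixes the order of Car1 and its partners along them, and the other genes are described with no test. Epor stood at 41.4, 49.99, 62.9 and 67.6 CPM, and Sphk1 at 32.8, 34.6, 52.2 and 69.6 CPM. Mt2 stood at 206, 325, 502 and 580 CPM, and Cpox at 89.4, 137, 160 and 186 CPM. Each of these 4 genes was higher in every range than in the one before it, but for Epor, Sphk1 and Cpox intervals of some neighbouring ranges overlapped.

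Some other genes, chosen after their values were seen, were lower in the upper ranges. Gata2 stood at 197, 149, 94.4 and 83.6 CPM, and the interval of the lowest range (180 to 216) lay apart from that of the highest (74.4 to 93.5). Apoe stood at 1665, 1283, 666 and 513 CPM. Meis1, a stem cell homeobox factor, stood at 61.7, 38.1, 14.4 and 9.35 CPM. Itga2b (CD41), an integrin of megakaryocytes and early progenitors, stood at 49.2, 20.6, 6.60 and 6.32 CPM, and Cd34 at 34.5, 17.8, 14.9 and 4.67 CPM. Gata1 did not follow either order, at 95.8, 96.8, 90.4 and 95.4 CPM, with intervals that overlapped throughout. Rhd stood at 28.5 CPM in the lowest range and between 59.4 and 65.7 CPM in the others, and Mki67 at 316, 303, 326 and 261 CPM. The summed megakaryocyte markers stood at 300.04, 194, 85.3 and 81.9 CPM, and the summed immediate early genes at 3622, 2825, 2217 and 2184 CPM. The summed HSC markers showed no such order, at 133, 112, 106 and 112 CPM.

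**Figure D4:**
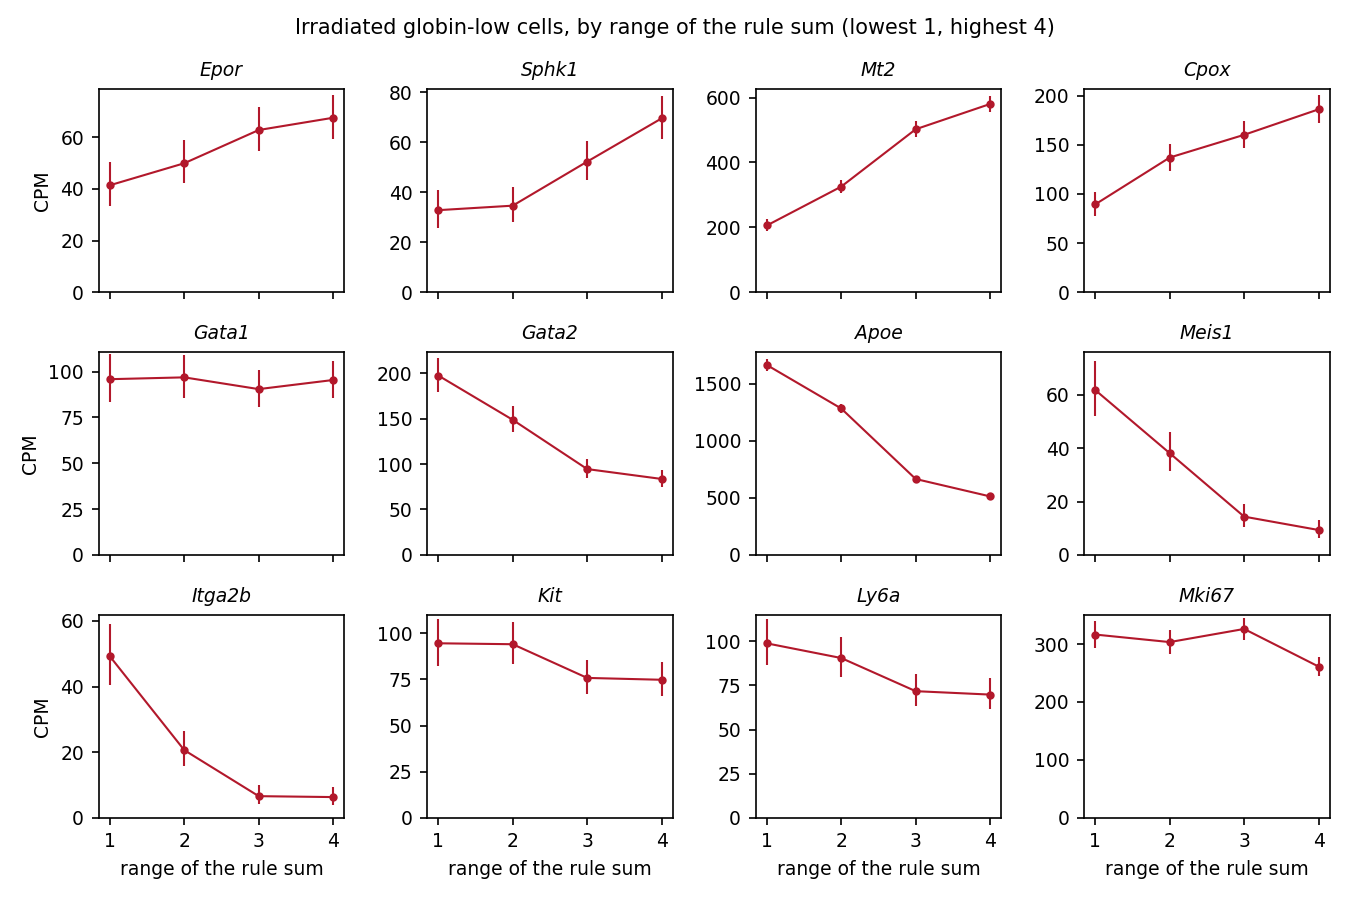
CPM of 12 genes in the 390 globin-low irradiated members, split into 4 ranges of the rule sum (x axis, 1 lowest to 4 highest, 97 or 98 cells each). Points are summed levels and bars exact 95% Poisson intervals. Epor, Sphk1, Mt2 and Cpox are higher in the upper ranges, Gata2, Apoe, Meis1 and Itga2b lower, and Gata1 lies between 90.4 and 96.8 CPM in all of them.

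The genes of the sorting markers were read in the same cells. Ly6a, for Sca1, stood at 78.7 CPM in irradiated members and 229 CPM in the rest of their library, and at 30.6 CPM (22 UMIs in 10 cells) in control members and 156 CPM in their rest. Among cells thinned to 5000 UMIs a Ly6a UMI was present in 28.2% of irradiated members, 31.9% of megakaryocyte-gene and 84.4% of HSC-gene cells. In control members it was 10.3% of the 29 cells deep enough. Kit stood at 81.2 CPM in irradiated members and 72.9 CPM in the rest, and at 132 CPM in control members and 132 CPM in their rest. Surface protein was not measured, and how far the level of Ly6a reflects the gate was not tested.

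Irradiated members were then set against the 35 control members, which asks how cells chosen by the same rule differed between the libraries. The comparison took in 2536 genes whose 2 levels averaged 50 CPM or more. Irradiated members were higher by 2-fold or more in 27 of them (1.06%) and lower by as much in 29 (1.14%). Of these calls 48.2% were on the higher side, and 66.1% with median-of-ratios scaling, which subtracted -0.09 from all log2 ratios and so raised them. The median log2 ratio over all genes tested was 0.07, and without globin-high cells the counts were 31 higher (1.22%) and 22 lower (0.868%). Control values rest on few UMIs. For the 14 genes named by rank here, 10 of the 35 control cells held from 78.5% (Cd63) to 100% (Iigp1, Mt2, Serpina3g, Irf1 and Hbb-bt) of the control UMIs. For Bax it was 64.4%, the least of the other genes given here with both levels, and for the 22 Ly6a UMIs 100%. In irradiated members 10 cells held between 90.02% (Hbb-bt) and 95.04% (Hba-a1) of the UMIs of each globin gene, and at most 22.985% of those of the other 10 (Dusp2).

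Among the highest ratios were those of Iigp1, Mt2, Serpina3g, Irf1, Igtp, Irf7 and Mt1, of which Mt2 and Mt1 are metallothioneins, Serpina3g is a serine protease inhibitor and the others are interferon-inducible genes. Iigp1, an interferon-inducible GTPase, stood at 100.03 CPM in irradiated and 15.3 CPM in control members (11 UMIs), a log2 ratio of 2.71 (1.87 to 3.72). Irf1, a factor induced by interferon gamma, stood at 115 and 23.6 CPM (17 UMIs). Irf7 stood at 96.3 and 25.0 CPM (18 UMIs). In the cells outside the members the same contrast gave log2 ratios of -0.08 for Iigp1, -0.40 for Irf1 and 0.97 for Irf7. The make-up of these outside cells, used here and below, differed between the libraries. Of kept cells, HSC-gene cells were 38.8% in the control and 11.3% in the irradiated library, and lymphoid-gene cells 35.1% and 14.3%. Granule-gene cells were 6.83% and 37.1%. The part of this shift in the ratios of the outside cells was not tested.

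The 31 interferon response genes in the data summed to 3134 CPM in irradiated and 1532 CPM in control members, and to 3279 and 2326 CPM in the other cells. Of these, 11 averaged 50 CPM or more over the 2 sets of members. Irf1, Igtp and Irf7 did so only through the irradiated members, so this minimum favours genes that are high there. Of the 11, 10 were at least 1.5-fold higher in irradiated members, with a median log2 ratio of 1.35. Over all genes tested 6.07% were as much higher and 4.3% as much lower. Ly6e was the exception among the 11, at 0.38. Without globin-high cells 10 were again higher, beside 6.03% of all genes (4.1% lower), and the median was 1.38. It ran from 0.84 to 1.85 over the alternatives tried. Among the other cells of the libraries 3 of the 11 were as much higher, beside 7.06% of all genes (5.05% lower), and the median was 0.49. In thinned cells, shares within sets were read for Irf7 and Isg15, the latter not among the 11. An Irf7 UMI was present in 12.8% of control and 28.0% of irradiated HSC-gene cells. It was in 13.0% and 30.7% of lymphoid-gene cells, 2.24% and 12.1% of granule-gene cells, 8.73% and 15.3% of megakaryocyte-gene cells, and 6.90% and 39.1% of members (29 in control). For Isg15 these shares were 7.73% and 20.1%, 6.96% and 16.8%, 1.02% and 10.0%, 4.76% and 9.72%, and 0% and 24.6%. Whether the contrast differed between members and other cells was not tested, with 1 library a group. Within the control library Irf1 was lower in members than in the rest (23.6 and 49.4 CPM), and within the irradiated library it was higher (115 and 37.4 CPM). Of 13 MHC class I genes 5 were higher, led by Psmb10 and Tapbp, and 0 lower (median 0.50, against 0.03 in the other cells). Without globin-high cells 3 of the 13 were higher (median 0.39). Psmb10, a subunit of the immunoproteasome, stood at 177 and 84.7 CPM.

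Mt2 stood at 426 CPM in irradiated members and 66.7 CPM in control members, and Mt1 at 966 and 328 CPM (log2 2.67 and 1.56). Per cell, Mt1 ran from 0 over a median of 1.59 to 8.70 UMIs per 10000 in control members and from 0 over 7.08 to 34.7 in irradiated members, so the sets overlapped. In the cells outside the members both genes were at lower levels and further apart, with Mt1 at 17.5 CPM in the control and 248 CPM in the irradiated library and Mt2 at 0.269 and 5.87 CPM. Within each library members stood above the rest for both genes. Of 16 ribosome biogenesis genes 5 were higher and 0 lower (median 0.51, and 0.38 in the other cells), beside 6.07% of all genes higher. Without globin-high cells 2 of the 16 were higher (median 0.46), and in the other cells 1 was. Of 13 antioxidant genes measured 1 was higher and 0 lower (median 0.13). It was Sod1, the cytosolic superoxide dismutase, at 247 and 133 CPM.

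Among the lowest ratios were those of the 4 globin genes, Sox4, Dusp2 and Cd63. Hbb-bs stood at 520 CPM in irradiated and 3414 CPM in control members, and Hba-a1 at 374 and 2278 CPM, levels that rested on 21 and 8 globin-high cells. Per cell the median of each of the 4 globin genes was 0 in both sets. Without the globin-high cells the median log2 ratio of 5 red cell membrane genes was 0.21, against -0.55 with them, and Hbb-bt turned to the higher side (15.3 and 3.14 CPM, the latter from 2 UMIs). Hemgn, Rhd, Cldn13, Ctse and Mgst3, all at least 1.5-fold lower in irradiated members, lay within 1.5-fold without those cells (log2 from -0.41 to 0.06), and Tfrc, Icam4, Rhag and Cpox were then at least 1.5-fold higher in irradiated members (1.22, 0.82, 0.78 and 0.66).

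Sox4, a factor of immature progenitors, was as low without the globin-high cells, at 82.0 CPM in irradiated and 326 CPM in control members (235 UMIs), a log2 ratio of -1.99 (-2.20 to -1.78) and -2.10 without them. It was also lower in the other irradiated cells (272 and 539 CPM). Dusp2, a phosphatase, stood at 26.4 and 95.8 CPM and Cd63, a tetraspanin, at 37.6 and 110 CPM. Kit was 81.2 against 132 CPM (log2 -0.70), and Ly6a 78.7 against 30.6 CPM (1.37). Of the p53 targets measured, Bax was higher (157 and 101 CPM) and Btg2 lower (89.8 and 171 CPM). Cdkn1a, below the minimum, stood at 30.8 and 11.1 CPM (8 control UMIs).

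The erythroid factors differed little between the sets of members. Of 12 measured none was 1.5-fold higher or lower, with a median log2 ratio of -0.26 (-0.27 without globin-high cells, where Nfe2 was lower at -0.66). Gata1 stood at 95.8 and 110 CPM (log2 -0.20, -0.52 to 0.15), Tal1 at 67.4 and 84.7 CPM and Gfi1b at 82.0 and 63.9 CPM. Epor stood at 59.5 and 41.7 CPM (log2 0.51, -0.01 to 1.09). Per cell, Gata1 ran from 0 over a median of 0.771 to 3.18 UMIs per 10000 in control members and from 0 over 0.834 to 6.05 in irradiated members. Differences under about 1.5-fold could not be told from counting error for genes with as few UMIs as Epor (30 in control members). Of 13 immediate early genes 1 was higher and 2 lower in irradiated members (median -0.31), beside 6.07% and 4.3% of all genes. Among the other cells 12 of the same 13 were lower (median -0.97), beside 5.05% of all genes. The starting levels differed. Per cell, the whole list had a median of 18.1 UMIs per 10000 in control members and 60.3 in the other control cells. In the irradiated library these medians were 24.1 and 27.2.

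**Figure D5:**
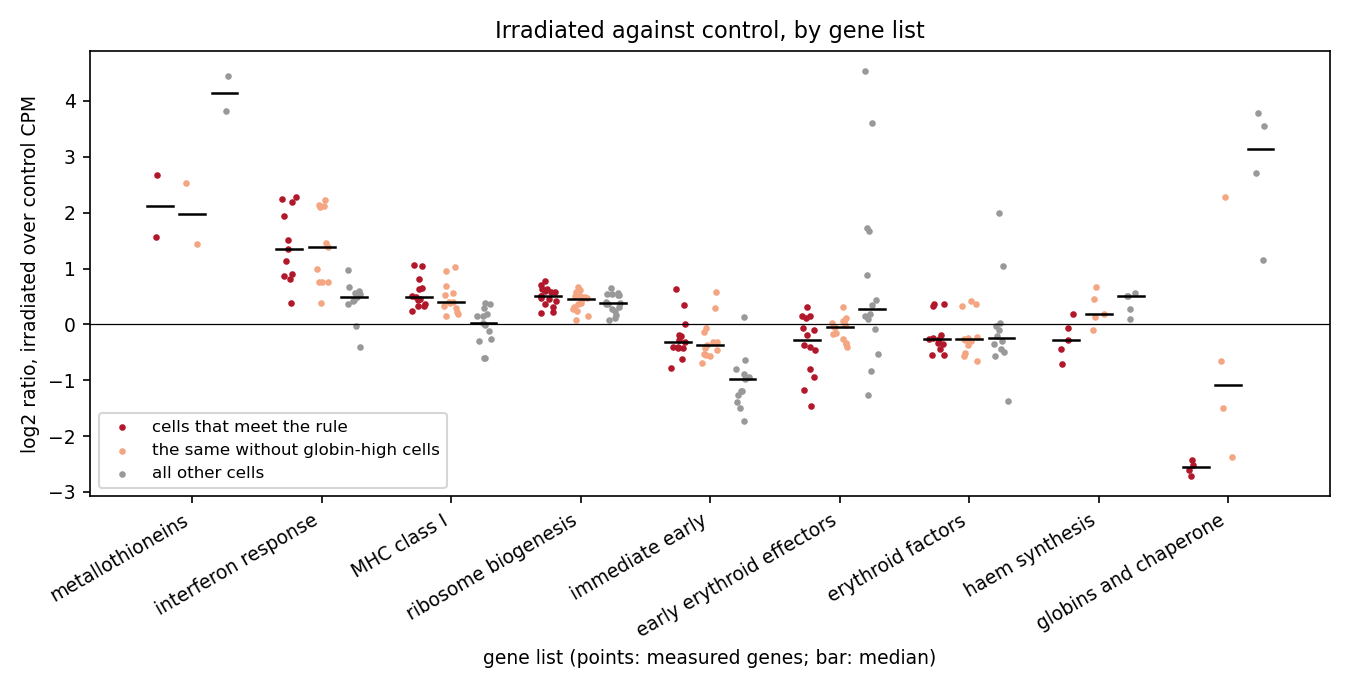
Log2 ratio of irradiated over control CPM for the measured genes of 9 lists, in members (red), in members without globin-high cells (orange) and in all other cells (grey). Each point is a gene and each bar the median of its list. The make-up of the other cells differed between the libraries. Interferon response genes have a median of 1.35 in members and 0.49 in other cells, metallothioneins 2.12 and 4.14, and globin genes -2.56 with and -1.08 without globin-high cells.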

How the data were processed

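Single-cell RNA was measured by the 10x 3′ v2 method, per the labels' protocols, in 1 control and 1 irradiated library. The deposited values are raw counts of UMIs per gene (31053 genes) and barcode; Cell Ranger 2.1.1 and mm10 are named in the submitters' processing notes, while the file headers give software version 3.1.0. Barcodes were kept at 1000 or more UMIs, 500 or more genes and at most 10% mitochondrial UMIs, which removed 496 control and 468 irradiated barcodes. The rule was applied to UMIs per 10000 of each cell. Other cells were sorted into megakaryocyte-gene (Pf4, Itga2b and Gp5 at least 4 per 10000), HSC-gene (haematopoietic stem cell; Hlf, Mecom and Procr at least 2), lymphoid-gene (Dntt, Flt3 and Satb1 at least 4) and granule-gene cells (Mpo and Ctsg at least 15).

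UMIs were summed over cells and expressed as CPM. Ratios carry exact 95% Clopper-Pearson intervals conditional on the gene's total, levels exact Poisson intervals and shares exact Clopper-Pearson intervals. A gene at 0 was set to 3 counts. Genes were called by size, at least 2-fold, at a mean of 10 CPM (against the rest, and against megakaryocyte-gene cells) or 50 CPM (against control members), and list members were counted past 1.5-fold. The 6 genes of the rule were left out. The rule for named genes takes the 12 highest and 12 lowest ratios against the rest (mean of at least 20 CPM), the 8 highest and 8 lowest against control members, of most lists up to 4 members by rank, the 10 genes most like the rule sum, Ly6a, Kit, Mki67, Cdkn1a and Mt1, and left out predicted, mitochondrial and ribosomal protein genes. The genes followed along the 4 ranges and among globin-high cells, and the globin limit, were chosen after seeing the data. The members, the 35 lists (14 of cell type markers) and the rule were chosen with earlier results of these data known.

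Scrublet, run in scanpy 1.11.5, called 2 control and 16 irradiated cells, under 0.5% of cells, so doublet calling has not worked and doublets were kept, with the highest 6% of scores left out as an alternative. Of the list symbols 7 were not found in the files. The computation used Python 3.11.15, numpy 2.4.6, scipy 1.17.1 and pandas 2.3.3, and was tested on simulated data. Alternatives covered the limits of the rule, depth, doublets, cell weights, the highest cells of each gene, scaling and CPM minimums, and 2 that were chosen after seeing the data leave out members high in globin UMIs or below 5000 UMIs. Some genes are not reported here. Promoters came from the RefSeq table of GRCm38.p6.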

Additional observations from a re-analysis of the deposited data

Results flagged for a closer look

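Barcodes removed by the filters were not used in any comparison, and some of them met both gene limits of the rule. This was the case for 58 of 468 removed irradiated barcodes, 12.4% (9.55 to 15.7), with a median of 2138 UMIs, and for 13 of 496 removed control barcodes, 2.62% (1.40 to 4.44), with a median of 1733 UMIs. The irradiated share lay above that of the control library, as it did among kept cells.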

How the results depend on the processing

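The irradiated share of members was 9.36% with a rule sum of at least 2 and 6.57% with at least 8; the control share stayed within its interval in each alternative. Genes at least 2-fold higher and lower against the rest numbered 2718 and 2583 with no CPM minimum and 85 and 142 at 50 CPM. Against control members the higher count was 97 in cells thinned to 5000 UMIs, 49 with cells weighted equally, 98 without each gene's 3 highest cells in each group, 511 with no minimum and 5 at 100 CPM. The lower count was 63, 50, 7, 2409 and 12 under those settings, 19 at a mitochondrial limit of 5% and 19 with median-of-ratios scaling. Leaving out 3 cells removes more of 35 control than of 411 irradiated members by construction, and for the other settings the cause was not tested. These log2 values changed sign: Igkc against the rest 0.33 without the highest doublet scores and 0.0096 without its 10 highest cells; against control members, without each gene's 3 highest cells, the medians of haem synthesis 0.37, red cell membrane 0.60 and immediate early genes 0.11, and Rhd 0.60 and Cldn13 0.66; with cells weighted equally, the medians of iron handling -0.31 and immediate early genes 0.11; at 5% mitochondrial UMIs, red cell membrane 0.36; and without globin-high members, red cell membrane 0.21 and Hbb-bt 2.28. Besides those listed, 948 of the values for single genes under the alternatives stayed close and 291 moved. For list medians these numbers were 466 and 22. Genes within 1.5-fold as reported and the smallest medians were not listed when they changed sign. Against control members, Tfrc (0.32) fell to -0.34 at its lowest. At their highest, Gata1 (-0.20) reached 0.11, Cpox (-0.07) 1.24 and the median of early erythroid effectors (-0.28) 0.27. No paired analysis was possible because each group has only 1 library. Depth limits the control members, whose UMIs cannot show small differences in genes below the minimum of 50 CPM.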
